A study of Mus musculus with 2 samples.

Results

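SR proteins and hnRNPs are the main families of RNA-binding proteins that decide which exons and introns stay in a messenger RNA. Their genes were taken from the 28692 genes of the count matrices as the symbols that start with Srsf and a digit or with Hnrnp. Symbols of the form used for pseudogenes were left out, 31 symbols matched, and 30 of them had at least 100 UMIs over both matrices (10 Srsf and 20 Hnrnp genes). The one left out was Srsf12, an SR-like gene with 1 UMI. Proteins of these families that carry other symbols, such as Ptbp1 (hnRNP I) or Tra2b, are given apart as lists of their own.

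The cells were C57BL/6 mouse bone marrow cells of the LSK fraction (lineage-negative, Sca-1-positive, Kit-positive), which is rich in blood stem and multipotent progenitor cells. They carried a GFP-marked retrovirus with a short hairpin RNA (shRNA) against Cxxc5, a gene for a CXXC zinc finger protein, or a control shRNA that targets no mouse gene. GFP-positive cells of both groups were sorted and grown for 3 days in 20% serum with 10 ng/ml of the cytokine GM-CSF and 10 ng/ml of SCF, a culture that drives myeloid differentiation. For each group, 5 samples were pooled into 1 droplet library, so there was no replicate, no p-value was computed, and every interval below covers counting error only.

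SR proteins bind exonic sequences through RNA recognition motifs and recruit the spliceosome through a domain rich in arginine and serine, which SRPK and CLK kinases phosphorylate. Many hnRNPs oppose them by silencing exons, and members of both families limit their own level by splicing their transcripts into forms that nonsense-mediated decay removes. In mouse granulocytes, retention of introns is known to increase during differentiation. The counts used here are per gene at the 3′ end and do not show exons, retained introns or protein.

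The knockdown library held 6015 barcodes with 62910229 UMIs (unique molecular identifiers, counts of distinct RNA molecules) and the control library 2925 barcodes with 49333454 UMIs. After filtering, 6004 knockdown cells had a median of 10599 UMIs and 2912 control cells a median of 17197 UMIs, and 26 barcodes occurred in both libraries. Levels are CPM, the UMIs of a gene per 1e+06 UMIs of the cells summed. Cxxc5 had 73 UMIs or 1.16 CPM in the knockdown library and 462 UMIs or 9.38 CPM in the control library, a log2 ratio of -3.01 (-3.39 to -2.65), which matched the labels. Cells were gated by summed UMIs of marker lists per 10000 UMIs of the cell, and 7 gates held at least 50 cells in each library. The top 10 genes by fold over the other cells held Ltf, Camp, Ngp and Ly6g in late neutrophil cells (510 knockdown and 351 control). They also held Stfa2 and Stfa3, which stand in the early neutrophil list. On that list late neutrophil cells had medians of 1400 and 1605 UMIs per 10000 in the knockdown and control libraries. Early neutrophil cells (532 and 325) had 349 and 362. Their top 10 held Stfa1, Fcnb and S100a8, with Lipg first in the control library. Monocyte cells (401 and 305) had Klf4, Ccr2 and Ms4a6c in their top 10, but also Mmp8, which stands in the late neutrophil list. In both libraries the top 10 held Cd74, H2-Aa and Ccl17 in MHC class II cells (51 and 51). They held Prss34, Ms4a2 and Tpsb2 in mast and basophil cells (139 and 79), and Cd34 and Sox4 in stem and multipotent cells (145 and 61). Genes outside the marker lists stood first in these 3 gates of the control library (Fscn1, Prg2 and Myct1). In MHC class II cells of the knockdown library Asgr2 stood first. The largest gate, with 2808 knockdown and 1082 control cells, was high in the granule protease list (Mpo, Elane, Prtn3, Ctsg and others). None of those markers was among its top 10 genes by fold over the other cells, so it is called here by its rule, granule protease-high. Gates are ranges of a score and not sharp types: 73 knockdown and 52 control cells lay within 25% of the late neutrophil threshold, and 708 and 353 within 25% of the granule protease threshold. The least sharp were the monocyte gate, with 286 and 167 cells near its threshold, and the stem and multipotent gate, where 162 and 85 cells lay near it, more than the gate held. Erythroid markers summed to 6.27 CPM in the knockdown library and 15.2 CPM in the control library, and 4 of 7 lymphoid markers were at 0 in both.

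The 30 genes lie on 16 chromosomes, and their promoters were rich in CpG. RefSeq promoter sequences (GRCm38.p6) were found for 28 of them, all but Hnrnpul2 and Hnrnpll, and the 250 bases before the transcription start were read. Members had a median of 24 CpG dinucleotides and 64.4% G and C, against 6 CpG and 52.0% over all 27025 promoters. The ETS letters CCGGAAG, on either strand, occurred in 6 of 28 members (21.4%) and in 7.05% of all promoters. A CCAAT box (CCAAT, either strand) occurred in 15 members (53.6%) and in 34.5% of all promoters. The E-box CACGTG occurred in 2 members, Hnrnpa3 and Hnrnpd (7.14%, against 6.05%). A TATA box (TATAAA, either strand) occurred in 3, Hnrnpm, Srsf2 and Srsf3 (10.7%, against 12.97%). A match of letters is a description of the window and does not show that a factor binds there, and members were compared with all promoters without matching for CpG content.

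Shown here are the windows of the 2 members with the largest and the 2 with the smallest falls in late neutrophil cells relative to granule protease-high cells (values below), among the 22 members with 1 listed start. Capitals mark matches to the letters above, and each window is written 5′ to 3′ on the strand of its gene. Hnrnpa0 is at chr13:58128557-58128806 on the minus strand, Hnrnpd at chr5:99978939-99979188 on the minus strand, Hnrnph2 at chrX:134600929-134601178 on the plus strand and Hnrnpul1 at chr7:25754760-25755009 on the minus strand.
Hnrnpa0: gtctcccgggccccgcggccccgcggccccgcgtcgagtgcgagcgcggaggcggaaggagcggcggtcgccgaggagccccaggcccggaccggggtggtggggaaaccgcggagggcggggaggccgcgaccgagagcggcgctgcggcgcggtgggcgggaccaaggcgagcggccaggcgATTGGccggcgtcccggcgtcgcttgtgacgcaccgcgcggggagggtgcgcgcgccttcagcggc
Hnrnpd: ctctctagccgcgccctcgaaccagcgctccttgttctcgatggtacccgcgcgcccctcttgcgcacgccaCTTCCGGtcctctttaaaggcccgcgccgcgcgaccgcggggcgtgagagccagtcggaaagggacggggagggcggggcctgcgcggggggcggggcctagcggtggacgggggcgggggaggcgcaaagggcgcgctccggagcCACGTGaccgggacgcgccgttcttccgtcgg
Hnrnph2: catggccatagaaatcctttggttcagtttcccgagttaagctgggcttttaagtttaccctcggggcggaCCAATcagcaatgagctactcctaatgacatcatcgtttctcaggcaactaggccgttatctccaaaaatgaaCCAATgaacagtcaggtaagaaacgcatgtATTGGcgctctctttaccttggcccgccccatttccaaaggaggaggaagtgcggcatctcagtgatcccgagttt
Hnrnpul1: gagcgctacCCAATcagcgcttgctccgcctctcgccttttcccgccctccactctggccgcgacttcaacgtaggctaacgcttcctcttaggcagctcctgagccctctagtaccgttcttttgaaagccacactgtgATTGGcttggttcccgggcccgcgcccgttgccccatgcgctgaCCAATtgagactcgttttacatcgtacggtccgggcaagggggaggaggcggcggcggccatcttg
The Hnrnpa0 window held 46 CpG and 1 CCAAT box, and the Hnrnpd window held 39 CpG, 1 ETS match and 1 E-box. Hnrnph2 and Hnrnpul1, at the other end, held 10 and 22 CpG and 3 CCAAT boxes each. These windows were picked by their falls, and a relation of window content to level was not tested over the 28 members.

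Together the 30 genes gave 514769 UMIs or 0.819% of the knockdown library and 375414 UMIs or 0.762% of the control library. The median cell spent 0.809% of its UMIs on them in the knockdown library and 0.741% in the control library, and 1 cell of all those kept had none. Hnrnpa2b1, an hnRNP of the A/B group that also sorts RNAs for transport, had the most UMIs, 55298 and 39913. Hnrnph3, a small member of the F/H group, had the fewest, 2319 in the knockdown and 1784 in the control library. These counts depend on how well the 3′ end of each transcript is captured, so genes are not ranked against each other.

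The first comparison asked whether knockdown of Cxxc5 changed these genes over all cells. Nearly all differed by less than 1.2-fold, the size set for a call. Of 30 genes at 20 CPM or more in either library, 1 was at least 1.2-fold higher in the knockdown library and 0 were 1.2-fold lower, against 3.02% and 4.06% of 4798 genes tested. The median log2 ratio, knockdown over control, was 0.10 for the members and 0.04 for all genes. It was above 0 for 25 of 30 members, against 61.7% of all genes tested, and above the all-gene median for 23.

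Hnrnpa3, a close relative of hnRNP A1 and A2/B1, was the 1 gene called. It had 505 CPM in the knockdown library (500 to 511) and 419.7 CPM in the control library (414 to 426), a log2 ratio of 0.27 (0.24 to 0.29). That is just past the threshold, and the call was lost relative to the median gene, when the control library's gate shares were applied to both libraries or when the 50 most abundant genes were left out of the totals. Next in order were Hnrnph1, which binds runs of G, at 151 and 130.7 CPM (log2 ratio 0.21, 0.17 to 0.26), and Hnrnpll, a regulator of CD45 splicing in T cells, at 69.0 and 60.7 CPM (0.19, 0.12 to 0.25). Srsf4, a large SR protein with a long arginine and serine domain, had 57.3 and 50.9 CPM (0.17, 0.10 to 0.24).

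At the low end stood Hnrnpl, which binds CA-rich RNA, with 45.5 CPM in the knockdown library and 49.1 CPM in the control library (log2 ratio -0.11, -0.19 to -0.03). Srsf5, Srsf10 and Srsf6 followed, with log2 ratios of -0.03, -0.02 and -0.01 and intervals that held 0. Srsf5 is an SR protein first found as an insulin-induced gene in rat liver, Srsf10 represses splicing when dephosphorylated, and Srsf6 is an SR protein close to Srsf4. No member's log2 ratio was farther from 0 than the 0.27 of Hnrnpa3.

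**Figure D1:**
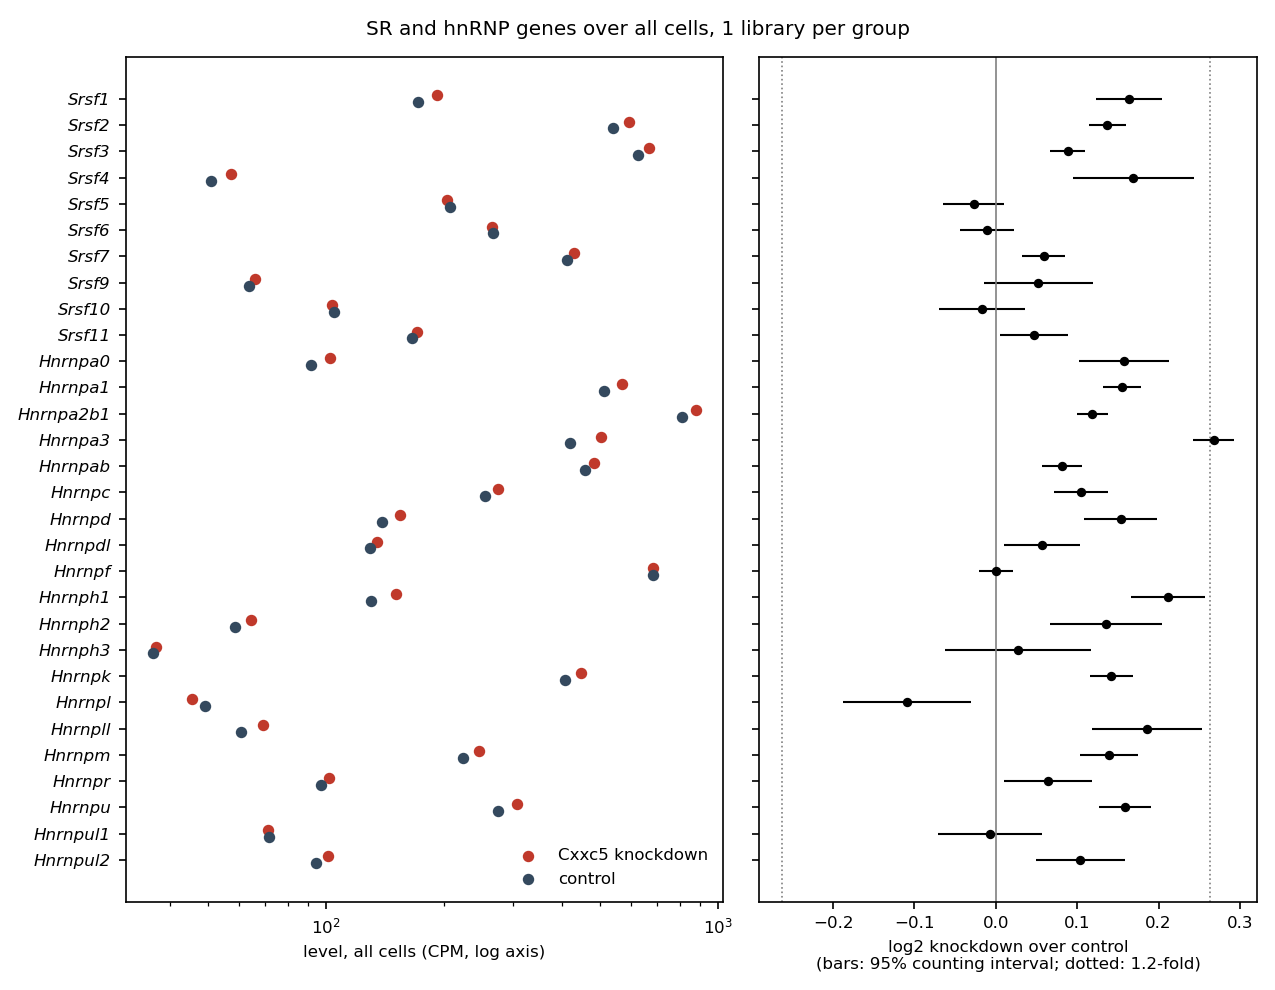
Left, the level of each of the 30 genes over all cells (CPM, log axis) in the knockdown and the control library, 1 library per group. Right, the log2 ratio of knockdown over control with its 95% counting interval, where dotted lines mark 1.2-fold and only Hnrnpa3, at 0.27, lies past one.

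The second question was how the genes varied across the cell types of the culture. Most of the members that differed did so in the neutrophil gates. All 30 genes were lower in late neutrophil cells than in granule protease-high cells of the same library, in both libraries. The share of all genes lower by any amount was not computed, but the median over all genes was also below 0 in both libraries. In the knockdown library 74.5% of all genes tested lay at or below Hnrnph2 (-0.05), the least lowered member. In the control library 67.4% lay at or below Hnrnpul2 (-0.26), the least lowered there. Most genes were thus lower in each library. At least 1.5-fold lower in both libraries were 17 of 30, and 0 were 1.5-fold higher. This was a broad pattern, since 44.6% of 4876 genes tested were lower by the same rule and 8.76% higher. The median log2 ratio of the members was -0.74 in the knockdown library and -0.78 in the control library, against -0.56 and -0.60 over all genes. As a share of UMIs, the members took 0.527% in late neutrophil and 0.857% in granule protease-high cells of the knockdown library, and 0.476% and 0.818% in the control library. Relative to the median gene, 6 members were 1.5-fold lower in both libraries, and 0 higher, against 17.9% and 19.8% of genes: the 6 were Hnrnpa0, Hnrnph1, Hnrnpd, Hnrnpu, Hnrnpa1 and Srsf1.

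Among the classical SR proteins, 6 of 8 were at least 1.5-fold lower in both libraries. Srsf1, the best studied of them and a promoter of exon inclusion, had 86.3 CPM in late neutrophil and 207 CPM in granule protease-high cells of the knockdown library (log2 ratio -1.26, -1.42 to -1.11). In the control library it had 74.0 and 191.5 CPM (-1.37, -1.54 to -1.21). It was thus the SR gene with the largest fall in both libraries. Srsf9, a short SR protein, had 33.1 and 67.4 CPM in the knockdown library (-1.03) and 31.5 and 68.6 CPM in the control library (-1.12). Srsf7, which also takes part in mRNA export, had 239.7 and 464 CPM in the knockdown library (-0.95) and 222 and 460.2 CPM in the control library (-1.05). Srsf2, Srsf3 and Srsf6 were also called, with smaller differences: their log2 ratios ran from -0.81 to -0.62 in the knockdown library and from -0.88 to -0.67 in the control library. Srsf2 is the SR protein mutated in human myeloid neoplasms, and Srsf3 links splicing to export. Srsf5 was not called, at 166 and 206 CPM in the knockdown library (-0.31) and 165 and 210.4 CPM in the control library (-0.35). Srsf4 was not called either, with log2 ratios of -0.18 and -0.69. Of the SR-like proteins, Srsf11 was called lower (-0.92 in both libraries) and Srsf10 did not reach the fold in the control library (-0.71 and -0.58).

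Of the 4 hnRNP A genes, 2 were at least 1.5-fold lower in both libraries. Hnrnpa0 is a single-exon gene whose protein binds AU-rich RNA and, in human and mouse blood progenitors, has been linked to myeloid differentiation. It had 24.1 CPM in late neutrophil cells (19.6 to 29.3) and 112 CPM in granule protease-high cells (109 to 116) of the knockdown library. In the control library it had 31.7 CPM (26.6 to 37.4) and 105 CPM (100.5 to 109). The log2 ratios were -2.22 (-2.53 to -1.93) and -1.73 (-1.98 to -1.48), the largest falls of any member in both libraries. With each cell thinned to 5000 UMIs, a Hnrnpa0 UMI was found in 10.1% of late neutrophil cells (7.44% to 13.4%) and 41.5% of granule protease-high cells (39.6% to 43.4%) of the knockdown library. The control shares were 13.8% (10.2% to 18.1%) and 39.9% (37.0% to 42.9%). Unthinned, they were 15.5% and 66.0% in the knockdown library and 30.2% and 79.0% in the control library. No cell type known to lack these genes was at hand as a background for such shares.

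Hnrnpa1, the classical silencer of exons, had 241 and 599 CPM in the knockdown library (log2 ratio -1.32, -1.41 to -1.22) and 212 and 548 CPM in the control library (-1.37, -1.47 to -1.27). Reads of this gene could be shared with its 2 named pseudogenes. Hnrnpa2b1 and Hnrnpa3, of the same group, were not called, at -0.50 and -0.48 in both libraries for Hnrnpa2b1 and at -0.48 and -0.77 for Hnrnpa3. All 4 were lower, Hnrnpa0 and Hnrnpa1 by more than 1.5-fold in both libraries.

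All 3 genes of the AB and D group were at least 1.5-fold lower in both libraries. Hnrnpd, known as AUF1, binds AU-rich elements and speeds the decay of cytokine and cell cycle mRNAs. It had 63.9 CPM in late neutrophil and 168 CPM in granule protease-high cells of the knockdown library (log2 ratio -1.40, -1.58 to -1.22), and 51.2 and 155 CPM in the control library (-1.60, -1.80 to -1.40). Thinned, a Hnrnpd UMI was found in 23.3% and 54.4% of cells of the knockdown library and in 19.1% and 54.0% of the control library. Hnrnpab had log2 ratios of -1.07 in the knockdown and -1.04 in the control library, and Hnrnpdl, a relative of Hnrnpd, -0.68 and -0.87.

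Of the 4 genes of the F and H group, 1 was at least 1.5-fold lower in both libraries. Hnrnph1 had 61.7 CPM in late neutrophil and 165 CPM in granule protease-high cells of the knockdown library (log2 ratio -1.42, -1.60 to -1.23), and 47.1 and 149 CPM in the control library (-1.66, -1.87 to -1.46). Its close relatives, which bind the same G-rich sequences, were lower by less than 1.5-fold. Hnrnph2 had 64.4 and 66.6 CPM in the knockdown library (-0.05, -0.24 to 0.14) and 48.2 and 64.2 CPM in the control library (-0.41, -0.63 to -0.20). Hnrnpf had 619 and 695 CPM in the knockdown library (-0.17) and 574 and 708 CPM in the control library (-0.30). Hnrnph3 had -0.27 and -0.56. Intervals of Hnrnpf lay below 0 in both libraries.

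Of the others, Hnrnpu, also called SAF-A and a scaffold protein of chromatin, had 135 and 339 CPM in the knockdown library (log2 ratio -1.32, -1.45 to -1.199) and 132 and 315 CPM in the control library (-1.25, -1.38 to -1.13). Its relatives Hnrnpul1 and Hnrnpul2 were among the least lowered, at -0.22 and -0.09 in the knockdown library and -0.33 and -0.26 in the control library. Hnrnpc, which binds runs of U in nuclear RNA, fell (-0.98 and -1.12), as did Hnrnpm (-0.86 in both) and Hnrnpr (-0.77 and -0.65). Hnrnpk, a C-rich RNA binder with KH domains, was not called, at 372 and 463 CPM in the knockdown library (-0.31) and 306 and 426 CPM in the control library (-0.48). Neither was Hnrnpl (-0.46 and -0.76) nor Hnrnpll (-0.44 and -0.71).

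Several measures moved with this difference. Late neutrophil cells were shallower than granule protease-high cells, at medians of 7989 and 11378.5 UMIs in the knockdown and 11991 and 19987.5 in the control library, and with cells thinned to 5000 UMIs 15 of the 17 members, all but Hnrnpdl and Srsf3, were lower by the same rule, against 44.0% of genes. Their 50 most abundant genes took 34.4% of UMIs, against 26.1% in granule protease-high cells of the knockdown library, and 34.9% against 26.1% in the control library. With those genes left out of the totals, 14 of the 17 were lower (all but Hnrnpdl, Srsf3 and Hnrnpr), against 34.1% of genes. G2/M transcripts were no scarcer in late neutrophil cells (16.9 and 15.7 UMIs per 10000 in the knockdown and control libraries) than in granule protease-high cells (14.7 and 14.1). S phase transcripts were scarcer, at 12.5 UMIs per 10000 in late neutrophil cells of both libraries, against 15.2 and 14.8 in granule protease-high cells of the knockdown and control libraries. The mitochondrial share of UMIs was lower as well, at 3.19% and 3.25% in late neutrophil cells against 4.07% and 3.99%. The part of these in the difference was not tested.

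**Figure D2:**
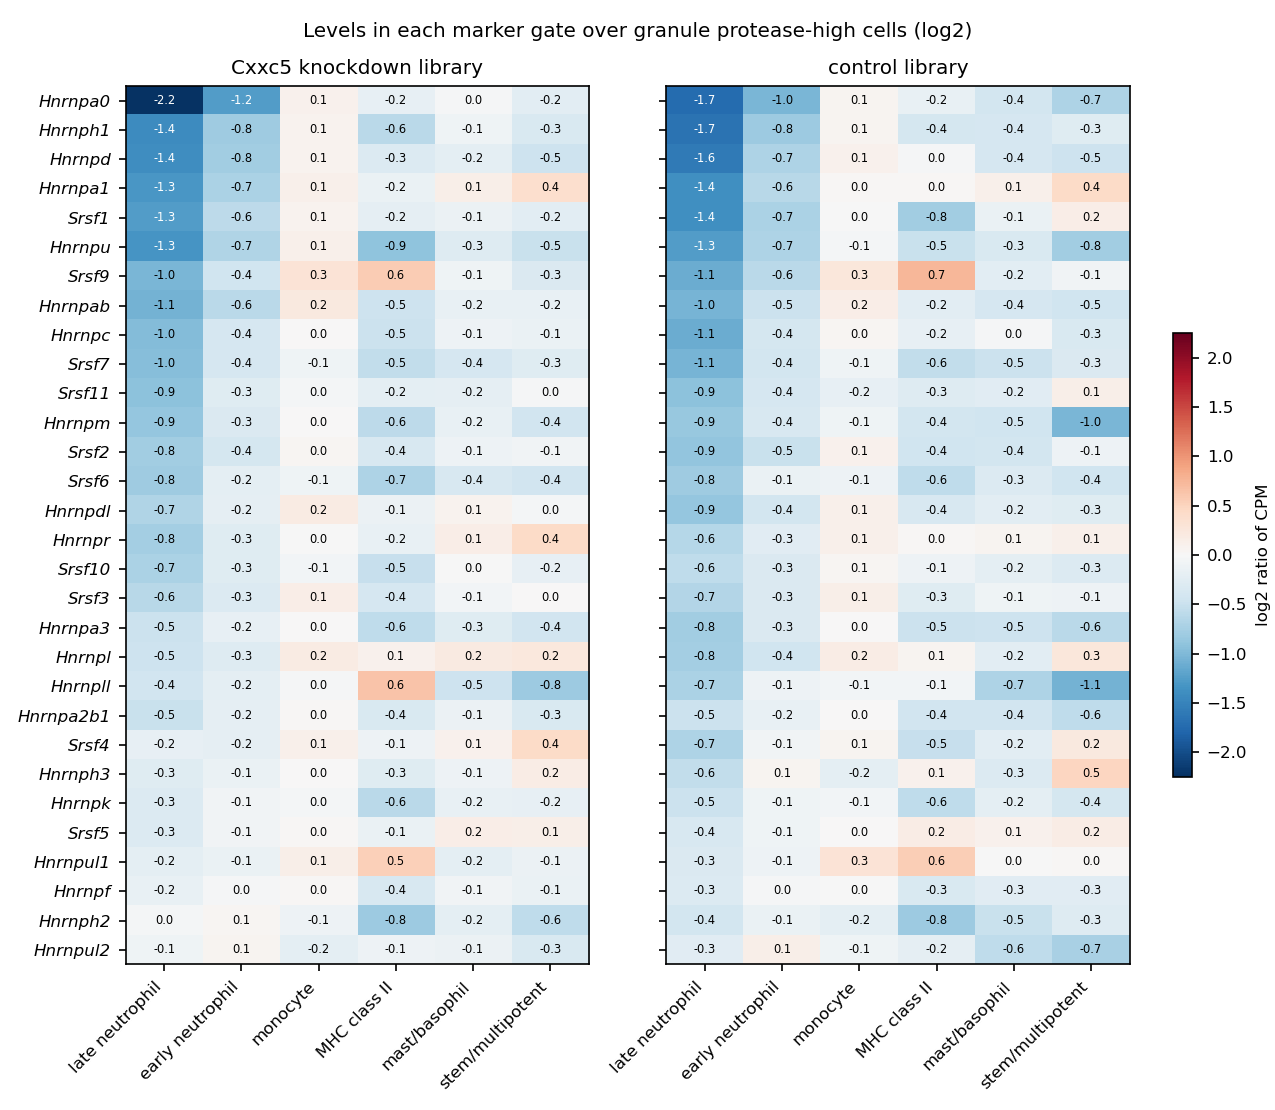
Log2 ratio of the level (CPM) in each of 6 gates over the granule protease-high gate, for 30 genes (rows) in the knockdown library (left) and the control library (right), with genes ordered by their ratio in the late neutrophil gate. The late neutrophil column is below 0 for every gene in both libraries, from Hnrnpa0 at the top (-2.22 and -1.73) to genes near 0. Most of all genes tested were also below 0 there in each library.

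Early neutrophil cells lay between. At least 1.5-fold lower than in granule protease-high cells of both libraries were 6 of 30, and 0 were higher, against 13.8% and 5.56% of 4801 genes. Most of these calls were lost with halved gate thresholds. The member medians were -0.28 and -0.34 in the knockdown and control libraries, and those of all genes -0.18 and -0.20. The 6 were Hnrnpa0, Hnrnph1, Hnrnpd, Hnrnpa1, Hnrnpu and Srsf1, and relative to the median gene 2 of them, Hnrnpa0 and Hnrnph1, were lower and 0 higher (7.14% and 8.83% of genes). The ratios nearest to or above 0 were those of Hnrnpul2 (0.06 and 0.13), Hnrnpf (-0.026 in both), Hnrnph3 (-0.15 and 0.06) and Hnrnph2 (0.05 and -0.15).

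From granule protease-high through early to late neutrophil cells, 26 of 30 genes were lower at each step in both libraries, against 57.6% of 4920 genes, and 0 were higher at each step (11.4%). The 4 exceptions were Hnrnph2, Hnrnph3, Hnrnpul2 and Srsf4. Hnrnpa0 had 112, 47.2 and 24.1 CPM over the 3 gates in the knockdown library and 105, 51.4 and 31.7 CPM in the control library. Hnrnpd had 168, 97.8 and 63.9 CPM in the knockdown library and 155, 95.4 and 51.2 CPM in the control library. Hnrnpk, by contrast, had 463, 437 and 372 CPM in the knockdown library and 426, 398 and 306 CPM in the control library.

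**Figure D3:**
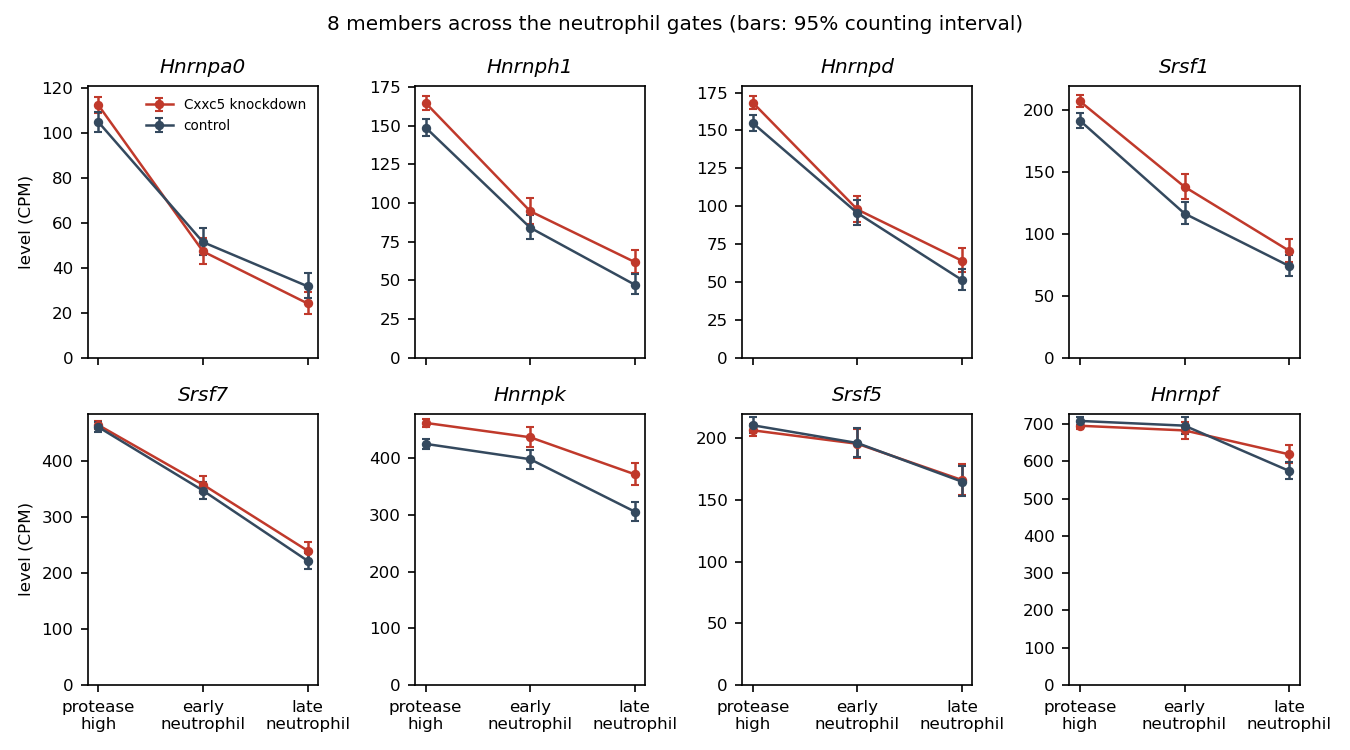
Level (CPM, axis from 0) of 8 genes in granule protease-high, early neutrophil and late neutrophil cells, in the knockdown and control libraries, with 95% counting intervals. Hnrnpa0, Hnrnph1, Hnrnpd and Srsf1 fall at each step, to 24.1 and 31.7 CPM for Hnrnpa0, while Hnrnpk, Srsf5 and Hnrnpf keep most of their level.

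In the other gates few members differed by 1.5-fold from granule protease-high cells. Monocyte cells had 0 higher and 0 lower, against 5.80% and 4.51% of 4966 genes, with member medians of 0.02 in both libraries. Relative to the median gene the counts were also 0 and 0 (6.22% and 4.17% of genes). The highest log2 ratios there were those of Srsf9 (0.31 in the knockdown and 0.26 in the control library), Hnrnpul1 (0.14 and 0.31), Hnrnpab (0.22 and 0.15) and Hnrnpl (0.18 and 0.16). The lowest were those of Hnrnph2 (-0.12 and -0.21), Hnrnpul2 (-0.21 and -0.10), Srsf11 (-0.05 and -0.18) and Hnrnph3 (0.01 and -0.23). Hnrnpa0 had 119.8 and 110.0 CPM in monocyte cells of the knockdown and control libraries, close to 112 and 105 CPM in granule protease-high cells.

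Mast and basophil cells also had 0 higher and 0 lower, against 6.56% and 7.35% of 4966 genes. Member medians were -0.12 and -0.28, those of all genes -0.12 and -0.18. Relative to the median gene 0 were higher and 0 lower (8.92% and 4.47% of genes). Hnrnpll was at the low end, with 53.3 and 73.5 CPM in the knockdown library (log2 ratio -0.46, -0.84 to -0.11) and 40.7 and 66.2 CPM in the control library (-0.70, -1.17 to -0.27). After it came Srsf7 (-0.37 and -0.48), Hnrnpa3 (-0.27 and -0.46) and Hnrnph2 (-0.22 and -0.50), and at the high end Srsf5 (0.16 and 0.10), Hnrnpa1 (0.13 and 0.12), Hnrnpr (0.15 and 0.07) and Hnrnpl (0.20 and -0.24).

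In stem and multipotent cells, 1 of 30 was lower and 0 higher, against 17.4% and 7.34% of 4915 genes. It was again Hnrnpll, with 41.9 CPM in these cells and 73.5 CPM in granule protease-high cells of the knockdown library (log2 ratio -0.81, -1.29 to -0.37), and 31.7 and 66.2 CPM in the control library (-1.06, -1.82 to -0.40). With doubled and halved gate thresholds the number lower was 4 and 0, where doubling left out most of these cells. Hnrnpm (-0.43 and -1.03), Hnrnpu (-0.50 and -0.78), Hnrnpul2 (-0.34 and -0.73) and Hnrnpa3 (-0.43 and -0.60) came next. At the high end by the mean of both libraries was Hnrnpa1, with 777 and 599 CPM in the knockdown library (0.37, 0.27 to 0.48) and 742 and 548 CPM in the control library (0.44, 0.29 to 0.58). Relative to the median gene, which was itself lower (-0.24 and -0.31), Hnrnpa1 was the 1 member at least 1.5-fold higher, with log2 differences of 0.62 in the knockdown and 0.75 in the control library, and 0 were lower (12.5% and 8.3% of genes). Hnrnpr (0.43 and 0.12) and Srsf4 (0.42 and 0.23) had higher ratios than Hnrnpa1 in the knockdown library alone, and Hnrnph3 (0.17 and 0.49) in the control library alone.

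MHC class II cells, 51 in each library, had 1 lower and 0 higher, against 19.9% and 12.9% of 5169 genes. Hnrnph2 had 37.6 and 66.6 CPM in the knockdown library (log2 ratio -0.82, -1.58 to -0.16) and 36.5 and 64.2 CPM in the control library (-0.81, -1.39 to -0.29). At the high end by the mean of both libraries was Srsf9, with 100.3 and 67.4 CPM in the knockdown library (0.57, 0.13 to 0.99) and 114 and 68.6 CPM in the control library (0.74, 0.42 to 1.04). Hnrnpul1 was next (0.53 and 0.56). Relative to the median gene Srsf9 and Hnrnpul1, 2 members, were higher and 0 members lower (17.7% and 10.4% of genes). Hnrnpll was above Srsf9 in the knockdown library but not in the control library (0.65 and -0.07), and Hnrnpl had 0.10 and 0.06. After Hnrnph2 at the low end came Hnrnpu (-0.90 and -0.50), Srsf6 (-0.70 and -0.58) and Hnrnpk (-0.61 and -0.58). Between 1 and 4 members were lower in the settings tried other than centring on the median gene, which left 0.

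The third comparison was knockdown against control within each gate. In granule protease-high cells, where the counts are deepest, 0 of 30 were 1.2-fold higher and 0 lower, against 2.53% and 2.94% of 4860 genes, and log2 ratios ran from -0.19 (Hnrnpl) to 0.20 (Hnrnpa3). Hnrnpll (0.15), Hnrnph1 (0.15) and Hnrnpa1 (0.13) stood next at the high end, and Srsf6 (-0.035), Srsf10 (-0.035) and Srsf5 (-0.03) at the low end. Early neutrophil cells had 1 higher and 0 lower (8.66% and 8.13% of 4515 genes) and monocyte cells 1 higher and 0 lower (9.26% and 9.14% of 5075 genes). The gene was Hnrnpa3 in early neutrophil cells, at 466 CPM in the knockdown and 368 CPM in the control library (0.34, 0.26 to 0.43). In monocyte cells it was Hnrnpu, at 365 and 304 CPM (0.26, 0.16 to 0.37). Next highest were Hnrnph2 (0.25), Srsf1 (0.25) and Srsf2 (0.20) in early neutrophil cells, and Hnrnph3 (0.25), Srsf1 (0.21) and Hnrnpa1 (0.21) in monocyte cells. Lowest were Hnrnph3 (-0.19), Hnrnpa0 (-0.12), Srsf6 (-0.10) and Hnrnpab (-0.06) in early neutrophil cells, and Hnrnpul1 (-0.18), Hnrnpl (-0.18), Srsf10 (-0.14) and Hnrnpr (-0.07) in monocyte cells.

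In late neutrophil cells 8 of 30 were higher and 1 lower in the knockdown library, against 18.2% and 10.8% of 4008 genes. The median log2 ratio was 0.11 for the members and 0.06 for all genes. Srsf4 had 49.8 CPM in the knockdown and 32.6 CPM in the control library (0.61, 0.30 to 0.93). Hnrnpa3 had 379 and 269 CPM (0.49, 0.38 to 0.61). The others were Hnrnpll (54.2 and 40.4 CPM, 0.42), Hnrnph2 (64.4 and 48.2 CPM, 0.42), Hnrnph1 (61.7 and 47.1 CPM, 0.39), Hnrnpd (63.9 and 51.2 CPM, 0.32), Hnrnph3 (31.6 and 25.5 CPM, 0.31) and Hnrnpk (372 and 306 CPM, 0.28). Of the 8 called higher, only Hnrnph3 had an interval that held 0 (-0.07 to 0.69). The 1 lower gene was Hnrnpa0, at 24.1 CPM in the knockdown and 31.7 CPM in the control library (-0.40, -0.78 to -0.015). This call was lost with doubled or halved gate thresholds. After it came Srsf10 (-0.17), Hnrnpr (-0.06) and Srsf6 (-0.05), with intervals that held 0. Late neutrophil cells of the knockdown library also held more granule protease transcripts, a median of 158 UMIs per 10000 against 96.9 in the control library, and the part of this in the difference was not tested.

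**Figure D4:**
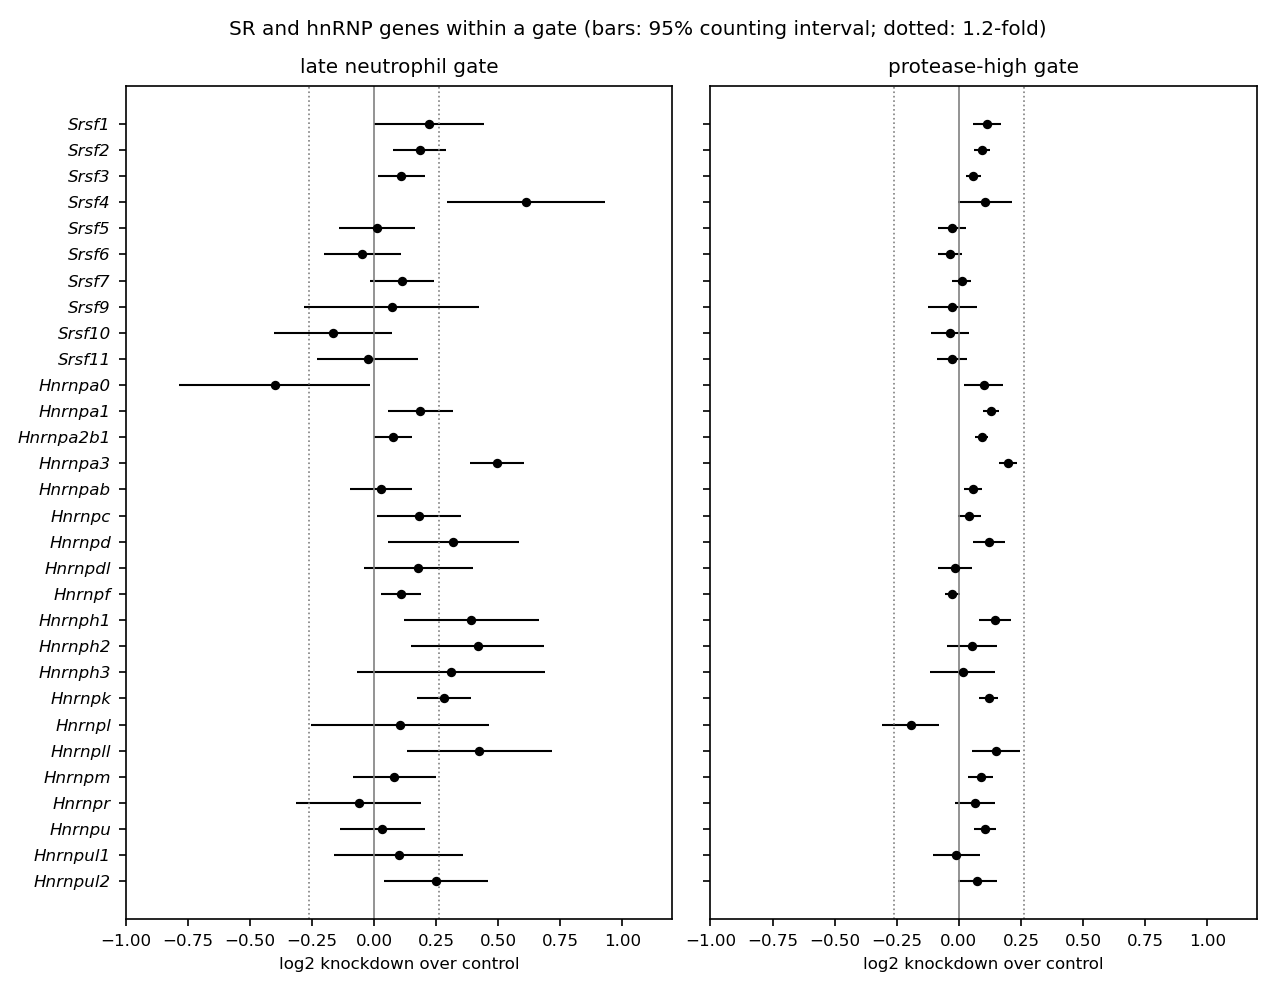
Log2 ratio of knockdown over control for the 30 genes within the late neutrophil gate (left) and the granule protease-high gate (right), with 95% counting intervals and dotted lines at 1.2-fold. In the late neutrophil gate, Srsf4 (0.61) and Hnrnpa3 (0.49) lie highest and Hnrnpa0 (-0.40) lowest, whereas no gene passes a dotted line in the granule protease-high gate.

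The 3 smallest gates gave wide intervals. In mast and basophil cells 12 of 30 were higher and 0 lower (25.9% and 19.3% of 5143 genes), with a member median of 0.19 against 0.04 over all genes. They were Hnrnpul2 (95.4 CPM in the knockdown and 66.6 CPM in the control library, log2 ratio 0.52), Hnrnpa0 (109.7 and 78.7 CPM, 0.48), Srsf4 (0.44), Hnrnph1 (0.43), Hnrnpa3 (0.40), Hnrnpll (0.39), Hnrnpa2b1 (838 and 642 CPM, 0.38), Srsf2 (573 and 441 CPM, 0.38), Hnrnpm (0.37), Hnrnph2 (0.34), Hnrnpdl (0.30) and Hnrnpd (0.28). Of these 12, Srsf4, Hnrnpll, Hnrnph2, Hnrnpdl and Hnrnpd had intervals that held 0. With halved gate thresholds 6 were higher. Hnrnpul1 had the lowest ratio (-0.22, -0.70 to 0.26), followed by Srsf6 (-0.08), Hnrnpc (-0.06) and Srsf11 (0.02). Knockdown cells of this gate held more granule protease transcripts, a median of 46.9 UMIs per 10000 against 28.0 in control cells, whose part was not tested.

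Stem and multipotent cells had 11 higher and 3 lower (28.3% and 22.9% of 4898 genes), with a member median of 0.12 against 0.04. Hnrnpm led, with 195 CPM in the knockdown and 121 CPM in the control library (log2 ratio 0.69, 0.28 to 1.11), followed by Hnrnpa0 (94.7 and 65.1 CPM, 0.54, -0.02 to 1.13), Hnrnpul2 (0.47, -0.12 to 1.09) and Hnrnpll (0.40, -0.42 to 1.29). The other 7 were Hnrnpu (0.39), Hnrnpr (0.38), Hnrnpa3 (0.38), Hnrnpab (0.35), Hnrnpk (0.34), Hnrnpa2b1 (0.31) and Srsf4 (0.30). Lower were Hnrnph3 (-0.30), Srsf1 (-0.28) and Srsf9 (-0.27), and Hnrnph2 (-0.23) was just within the fold. Intervals held 0 for all 3 called lower and for 5 of the 11 called higher, namely Hnrnpa0, Hnrnpul2, Hnrnpll, Hnrnpr and Srsf4. Doubling the gate threshold turned the count to 12 lower, and halving it left 5 higher. The median marker score here, 8.56 in knockdown and 8.86 in control cells per 10000 UMIs, lay below the doubled threshold. Doubling thus left out most of these cells, and the minimum of 50 cells was not applied to it. Knockdown cells of this gate also held more granule protease transcripts (35.0 against 17.9 UMIs per 10000 in control cells) and G2/M transcripts (8.55 against 4.61), whose part was not tested.

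MHC class II cells had 3 higher and 4 lower (29.1% and 23.8% of 5237 genes), with a member median of -0.04 against 0.03. Hnrnpll had 115 and 63.3 CPM (log2 ratio 0.86, 0.29 to 1.44), Srsf1 179.8 and 111 CPM (0.70, 0.26 to 1.14) and Srsf4 52.3 and 36.5 CPM (0.52, -0.31 to 1.33). Hnrnpdl (0.21) was next and not called. Srsf10 (-0.44), Hnrnph3 (-0.36), Srsf5 (-0.34) and Hnrnpu (-0.29) were lower, and all 4 intervals held 0. In these 51 cells a few cells weigh heavily: the 10 richest cells held 54.4% of the Hnrnpa3 UMIs in the knockdown and 49.6% in the control library.

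Across the 7 gates, 6 genes had a log2 ratio above 0 in each: Hnrnpa2b1, Hnrnpa3, Hnrnpk, Hnrnpll, Srsf2 and Srsf7. Of 3292 genes tested in every gate, 8.87% were above 0 in each and 4.68% below. For Hnrnpa3 the ratio ran from 0.10 in MHC class II cells to 0.49 in late neutrophil cells, and the interval lay above 0 in 6 of 7 gates. Srsf6 was the 1 gene below 0 in each, from -0.16 to -0.01, and its interval lay below 0 in none. These gates come from the same 2 libraries, so they do not replicate the knockdown.

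The fourth comparison set cells rich in G2/M transcripts (20 or more UMIs per 10000) against cells without any. In the rich cells 15 of 30 genes were at least 1.5-fold higher in both libraries and 0 were lower, against 30.5% and 8.99% of 5028 genes. Member medians were 0.71 in the knockdown and 0.89 in the control library, and those of all genes 0.39 and 0.47. At the high end by the mean of both libraries was Hnrnpd, the highest in the knockdown library, with 157 CPM in rich and 54.2 CPM in G2/M-free cells of the knockdown library (log2 ratio 1.54, 1.07 to 2.05), and 142 and 52.8 CPM in the control library (1.43, 0.91 to 2.01). Hnrnpa0 (1.22 and 1.62), Srsf7 (1.198 and 1.64) and Hnrnpdl (0.98 and 1.65) followed, then Hnrnpu, Hnrnpa3, Hnrnpm, Hnrnpa2b1, Hnrnpll, Hnrnpab, Srsf6, Hnrnph2, Srsf3, Hnrnph1 and Srsf1. In the control library Hnrnpdl, Hnrnph1 (1.64), Srsf7, Hnrnpa0 and Hnrnpab (1.53) were above Hnrnpd. By the mean of both libraries Srsf4 (0.015 and 0.018), Srsf5 (0.13 and -0.08), Hnrnpa1 (-0.04 and 0.28) and Srsf9 (0.20 and 0.15) were lowest. Hnrnpl (-0.11 and 0.85) was below them in the knockdown library alone.

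Depth moved with this split, since the rich cells (1889 knockdown and 869 control) had medians of 12069 and 19960 UMIs and the G2/M-free cells (155 and 77) of 3765 and 6266. Cell types moved with it too: granule protease-high cells made up 43.5% of the rich and 9.03% of the G2/M-free cells of the knockdown library, and 35.6% and 9.09% in the control library. Stem and multipotent cells were 1.75% of the rich and 18.1% of the G2/M-free cells of the knockdown library, and 1.04% and 15.6% in the control library. Mast and basophil cells were 2.01% and 9.68% in the knockdown library, and 2.99% and 10.4% in the control library. With cells thinned to 5000 UMIs before the split, 1 of 30 was higher (Hnrnpd) and 0 lower, against 11.9% and 4.22% of 4830 genes. The classes then held other cells, 1888 and 936 rich and 96 and 107 G2/M-free in the knockdown and control libraries. It was thus not the same split at equal depth. Within granule protease-high cells alone, rich cells (821 and 309) were set against cells under 8 G2/M UMIs per 10000 (414 and 174). There 0 of 30 were 1.5-fold higher and 0 lower, against 2.57% and 0.685% of 4820 genes. At 1.2-fold in both libraries 1 was higher and 0 lower, against 16.9% and 3.32%. It was Hnrnpa0, with 124 and 95.5 CPM in the knockdown library (0.37, 0.20 to 0.54) and 112 and 78.8 CPM in the control library (0.51, 0.29 to 0.73). By the mean of both libraries Srsf3 (0.20 and 0.43), Srsf1 (0.22 and 0.40) and Hnrnpd (0.24 and 0.37) came next, and Hnrnpa1 (0.25 and 0.24) was above these 3 in the knockdown library. Srsf2 (-0.17 and -0.07), Hnrnpf (-0.06 and -0.10), Hnrnph2 (-0.17 and -0.07) and Hnrnph3 (-0.11 and -0.10) were lowest.

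Other splicing genes were read the same way in late neutrophil against granule protease-high cells. The counts below stand against the 44.6% of all genes tested that were lower by the same rule. Of the core spliceosome, 27 of 33 genes tested were at least 1.5-fold lower in both libraries, with medians of -0.96 in the knockdown and -1.03 in the control library, below the SR and hnRNP medians of -0.74 and -0.78. Prpf19 (-1.55 and -1.83), Sf3a1 (-1.60 and -1.52), Prpf8 (-1.33 and -1.76) and Eftud2 (-1.56 and -1.40) were farthest from 0. Of hnRNP proteins with other symbols 5 of 7 were lower, led by Ptbp1, the polypyrimidine tract binder (-1.69 and -1.88), and Syncrip (-1.44 and -1.66). Of SR-related proteins 6 of 11 were lower, led by Scaf4 (-2.00 and -1.38), and of other splicing regulators 11 of 18. Nonsense-mediated decay genes had 2 of 5 lower, Upf1 (-1.80 and -1.81) and Smg5 (-1.37 and -1.63).

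Of 7 kinases that phosphorylate SR proteins tested, 2 were lower and 0 higher, with medians of -0.29 in the knockdown and -0.54 in the control library. The 2 lower were Srpk1 (log2 ratios -1.54 and -1.38) and Prpf4b (-0.64 and -0.65). Srpk2, the paralog of Srpk1, was not called, at 0.53 and 0.58, just under the 1.5-fold line. For scale, 3 of 13 housekeeping genes were lower and 1 higher (medians -0.43 and -0.40), 3 of 16 S phase genes were lower (-0.45 and -0.46), and 0 of 18 G2/M genes were lower and 2 higher (0.24 and 0.12). Knockdown against control over all cells called 0 genes of the 6 splicing lists, against 3.02% higher and 4.06% lower of all genes tested. The medians of these lists ran from -0.04 to 0.09.

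Of the 30 genes, 10 overlap another gene of the matrices, 1 of them on the same strand (Hnrnpm with March2), and the sources used here do not state whether the counting used strand. Values of those genes, among them Srsf2, Srsf1, Hnrnpd, Hnrnpk and Hnrnpu, are uncertain to that extent.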

How the data were processed

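The files deposited by the authors hold UMI counts for each gene in each cell barcode. The libraries used the 10x Genomics 3′ kit, version 2, per the labels' protocols. The submitters' processing notes name Cell Ranger 2.1.1 and the mm10 genome, and no annotation release is named in the sources used here. Coordinates come from GENCODE M21 on GRCm38, which is the same assembly as mm10.

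Cells with at least 500 genes and at most 10% mitochondrial UMIs were kept, which removed 11 knockdown and 13 control barcodes. No doublet caller was run. Cells that passed several lineage gates were left out of the gates (97 knockdown and 58 control cells). So were cells that passed no gate, 1321 knockdown (22.0%) and 600 control cells (20.6%). Both kinds stayed in the comparisons over all cells. As an alternative the 5% of cells with most UMIs were left out. Gate thresholds, in summed marker UMIs per 10000, were 100 for late neutrophil, 200 for early neutrophil (and not late), 5 for monocyte (and not MHC class II), 10 for MHC class II, 10 for mast and basophil, and 6 for stem and multipotent cells. The granule protease-high gate needed 100 and every lineage score below its threshold divided by 2. Thresholds were set after the marker scores were seen.

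UMIs were summed over cells and divided by all UMIs of those cells, as counts per 1e+06 (CPM), with exact Poisson intervals. For ratios the intervals are exact binomial ones on how the UMIs divide between groups, and for shares exact Clopper-Pearson ones, all at 95% and for counting error only, so differences between mice, infections or cultures and the spread between cells are not in them. With 1 pooled library per group there was no test and no p-value. A gene was tested at 20 CPM or more in either group compared. It was called at 1.2-fold between libraries, and at 1.5-fold in both libraries between gates or G2/M classes. For the G2/M split within granule protease-high cells, 1.2-fold was used as well, chosen after seeing the data. Named were the genes past the fold and any others among the 4 highest and 4 lowest ratios, ranked by the mean of both libraries where each gave a ratio, with at most 4 of each other list. The members and lists were chosen with earlier results of these data known.

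Alternatives were other CPM minimums (10, 50 and none), centring on the median gene, totals without the 50 most abundant genes, per-cell means, thinning to 5000 UMIs (which left out 641 knockdown and 115 control cells), no filter on cells, fixed gate shares, and doubled or halved gate thresholds. Chosen after seeing the data were leaving out shared barcodes or the 10 cells richest in a member, cells that pass no gate as the comparison for late neutrophil cells, and the G2/M split within granule protease-high cells. The arithmetic was tested on simulated data. Python 3.11.15, numpy 2.4.6, scipy 1.17.1, pandas 2.3.3 and matplotlib 3.10.9 were used.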

Additional observations from a re-analysis of the deposited data

Results flagged for a closer look

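Hnrnpa0 had opposite signs in 2 gates whose counting intervals, knockdown over control, lay on either side of 0. The log2 ratio was -0.40 in late neutrophil cells, at 24.1 CPM in the knockdown and 31.7 CPM in the control library, and 0.48 in mast and basophil cells, at 109.7 and 78.7 CPM. The counts behind these levels were 99 and 138 UMIs in late neutrophil cells and 138 and 85 UMIs in mast and basophil cells. The difference between the gates was not tested, because each library is 1 pool.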

How the results depend on the processing

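Counts of called genes and the Cxxc5 ratio were recomputed under the alternatives that apply to each, and 159 of these values stayed within 1.5 times the one reported (Cxxc5 within its interval) while 45 did not. Over all cells, a minimum of 10 CPM or none could not change the counts, since every member was already tested at 20 CPM. For knockdown against control over all cells, the 1 gene higher became 0 when centred on the median gene, with gate shares held at the control library's, or without the 50 most abundant genes, and 2 when thinned. Thinning to 5000 UMIs moved the members called within gates to 13 higher in late neutrophil cells, 1 lower in early neutrophil cells, 2 higher and 1 lower in monocyte cells, and 6 higher and 10 lower in MHC class II cells. Doubled gate thresholds gave 0 lower in late neutrophil cells, 7 higher and 2 lower in monocyte cells and 12 lower in stem and multipotent cells. Doubling left out most cells of the stem and multipotent gate. Halved thresholds gave 0 lower in late neutrophil, 0 higher in monocyte, 6 higher in mast and basophil, and 5 higher and 1 lower in stem and multipotent cells. Without the 10 richest cells, 2 were higher in early neutrophil and in monocyte cells, 12 lower in MHC class II cells, and 19 higher and 1 lower in stem and multipotent cells. This setting left out 10 cells of each library at any gate size. In stem and multipotent cells these were 10 of 145 knockdown and 10 of 61 control cells. That lowers the control level more and by itself moves ratios up, so those counts do not show dependence on a few cells. A minimum of 50 CPM left 0 lower in late neutrophil cells.

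Between gates, centring on the median gene left 6 lower in late neutrophil and 2 in early neutrophil cells, 2 higher and 0 lower in MHC class II cells, and 1 higher and 0 lower in stem and multipotent cells. Halved thresholds left 1 lower in early neutrophil cells, gave 1 higher and 2 lower in MHC class II cells, and 0 lower in stem and multipotent cells. Doubled thresholds gave 1 higher in MHC class II cells, and 2 higher and 4 lower in stem and multipotent cells. Per-cell means gave 4 lower in MHC class II and 2 lower in stem and multipotent cells. Thinning gave 1 higher and 4 lower in MHC class II cells, and leaving out the 50 most abundant genes gave 1 higher there. The 15 higher in G2/M-rich cells became 1 when thinned before the split, which changed the cells in each class. They became 0 within granule protease-high cells, where the low class also changed, to cells under 8 G2/M UMIs per 10000.

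Single genes that changed sign, knockdown over control, were Hnrnph2 (-0.030 thinned) and Hnrnpdl (-0.056 with halved thresholds) in mast and basophil cells. In stem and multipotent cells they were Hnrnpa0 (-1.09), Hnrnpu (-0.59), Hnrnpa2b1 (-0.57), Srsf4 (-0.15) and Hnrnpa3 (-0.13) with doubled thresholds, Hnrnph3 (0.19) without the 10 richest cells, and Srsf1 (0.084 thinned, 0.061 with halved thresholds). In the G2/M split within granule protease-high cells they were Hnrnpu (-0.013), Hnrnph2 (-0.17) and Hnrnpll (-0.030) in the knockdown library, and Hnrnph2 (-0.065) and Hnrnpll (-0.010) in the control library. The causes were not tested. In stem and multipotent cells, doubling the threshold left out most of the cells, and leaving out the 10 richest took a larger part of the control cells. Of the members' other values, 3604 stayed within and 706 moved beyond their counting interval. The 3604 include values under other CPM minimums, which cannot change a ratio. The median of the members over all cells, which has no such interval, is also counted among these values. No paired analysis was possible because each group had 1 pooled library. The 51 to 145 cells per library in the 3 smallest gates limit how small a difference can be seen there.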

Other observations

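Cell-to-cell spread was read in granule protease-high cells thinned to 5000 UMIs (2604 knockdown and 1067 control cells) as the Fano factor, the variance of a gene's UMIs over its mean. Hnrnpa1 had 1.30 in the knockdown and 1.29 in the control library, Srsf2 1.27 and 1.19, Srsf3 1.16 and 1.28, and Srsf7 1.17 and 1.21. The median over all genes was 1.02 and 1.03, and Hnrnpa1 stood at percentile 96.5 of 4725 genes in the knockdown and 95.6 of 4764 in the control library. Genes were not matched on their mean, with which the Fano factor tends to increase. Hnrnpa0 was seen in 36.9% of all thinned cells of the knockdown and 33.5% of the control library, and Hnrnpa2b1 in 98.1% and 96.2%.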
